A study of Mus musculus with 12 samples.

Results

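The 50 genes described here are the mouse genes whose symbols begin with Psma, Psmb, Psmc, Psmd, Psme, Psmf or Psmg followed by a digit. They are 50 of the 24444 gene symbols in the count tables. They fall into an immunoproteasome set of 5 genes (Psmb8, Psmb9, Psmb10, Psme1 and Psme2) and 45 others. Symbol matching also takes in Psmc3ip, a cofactor of meiotic recombination that is no proteasome subunit, and Psme2b, a near copy of Psme2.

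The proteasome is the protease that degrades ubiquitin-tagged proteins. Its 20S core is a barrel of alpha rings (Psma genes) and beta rings (Psmb genes), and the beta rings hold the catalytic sites. The 19S particle binds the barrel, where its ATPases (Psmc genes) unfold substrates and its other subunits (Psmd genes) bind and remove ubiquitin. In blood cells, and in other cells under interferon-gamma, Psmb8, Psmb9 and Psmb10 are made in place of the constitutive catalytic subunits Psmb5, Psmb6 and Psmb7. Psme1 and Psme2 encode the PA28 alpha and beta activator, which caps the same core. The resulting immunoproteasome is known for cutting peptides that MHC class I molecules can present.

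RNA was sequenced from bone marrow cells of C57BL/6 mice in 4 groups of 3 libraries. The group aged_KO came from Hopx-knockout mice and the group aged_WT from Hopx wild-type mice, both called aged and labelled 18 weeks old. The group MN1_KO came from Hopx-knockout mice with MN1 overexpression and the group MN1_WT from Hopx wild-type mice with MN1 overexpression, both labelled 16 weeks old. Hopx is a homeodomain-only cofactor without DNA binding of its own, and MN1 is a transcriptional coregulator that drives myeloid leukaemia in mice when overexpressed. Libraries keep the replicate numbers of their titles, which are 3, 9 and 10 in aged_KO, 1, 6 and 7 in aged_WT, 5, 7 and 8 in MN1_KO, and 2, 3 and 4 in MN1_WT. How MN1 was delivered, and in which share of the cells, is not in the labels. Nothing states that the libraries of a group came from separate animals, so p-values measure the spread between these libraries only.

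Library totals ran from 16544407 to 28409046 counts. Levels below are TMM-scaled CPM, that is, counts scaled to the library total and by edgeR's TMM factors for the 12 libraries. Hopx itself lay at 0 to 0.141 in aged_KO against 15.0 to 35.1 in aged_WT, and at 2.84 to 3.11 in MN1_KO against 11.8 to 27.0 in MN1_WT. Mn1 had 38.4, 41.0 and 22.2 in MN1_KO libraries 5, 7 and 8, against 0.383, 30.5 and 0.158 in MN1_WT libraries 2, 3 and 4. The libraries labelled MN1_WT 2 and 4 therefore lay within the range of the aged libraries for Mn1 (0.0859 to 1.25). Group names below are these labels, and some results that use MN1_WT are also given without those libraries. Among them are the medians and the immunoproteasome fold changes of MN1_KO against MN1_WT. Ratios and shares then rest on library 3 alone and have no test. In bulk RNA, fewer cells of a type and less RNA per cell cannot be told apart. The MN1 and aged libraries differ at once in MN1 label, in labelled age and in the table they were deposited in, and these cannot be told apart.

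Short stretches of promoter sequence are shown for the genes that fell in aged_KO marrow, because the immunoproteasome genes are known targets of interferon-gamma factors. They come from RefSeq windows of mouse GRCm38.p6 that run from 250 bases before to 50 bases after the start of a transcript. A window was found for 42 of the 50 genes. The letters TTCNNNGAA (GAS, the gamma-activated site) and GAAA, any 2 bases and GAAA again (an ISRE-like site) were searched on both strands. No gene of the family held both motifs. Among the 7 genes lower in aged_KO (below), 3 held one of them, printed in capitals:
Psmb8, chr17:34198088-34198117, plus strand, GAS 97 to 89 bases before the start: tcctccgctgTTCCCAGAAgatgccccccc
Psme1, chr14:55578493-55578522, plus strand, ISRE-like on the other strand 9 to 18 bases after the start: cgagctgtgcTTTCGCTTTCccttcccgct
Psmg4, chr13:34162969-34162998, plus strand, ISRE-like 15 to 24 bases after the start: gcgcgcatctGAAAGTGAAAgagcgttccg
All 3 matches overlap an annotated exon of GENCODE vM21. In the windows of the remaining genes, Psmb9, Psmb10, Psme2 and Psma7, neither motif was found. The exon-free bases upstream of the starts of Psmb10 and Psme2 are given for comparison, with no capitals because nothing matched:
Psmb10, chr8:105938445-105938642, minus strand, 250 to 53 bases before the start: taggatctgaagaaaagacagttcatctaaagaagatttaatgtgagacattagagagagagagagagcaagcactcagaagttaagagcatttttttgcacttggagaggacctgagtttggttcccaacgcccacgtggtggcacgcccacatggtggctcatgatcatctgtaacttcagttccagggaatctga
Psme2, chr14:55591114-55591351, minus strand, 250 to 13 bases before the start: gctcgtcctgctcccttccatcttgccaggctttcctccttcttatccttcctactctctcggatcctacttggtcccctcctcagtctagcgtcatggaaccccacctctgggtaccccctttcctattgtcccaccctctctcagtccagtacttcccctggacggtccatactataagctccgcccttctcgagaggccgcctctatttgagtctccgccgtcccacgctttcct
GAS letters occurred in 9.55% of the 27025 genes with a window, in 1 of 5 immunoproteasome genes and in 2 of 37 other members. ISRE-like letters occurred in 3.99% of all genes with a window, in 1 of 5 immunoproteasome genes and in 4 of 37 other members. At least one of the motifs was present in 8 of the 42 members with a window and in 12.9% of all genes. These are letter matches in a fixed window, not measured binding.

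The whole immunoproteasome set was lower in aged Hopx-knockout marrow than in aged wild-type marrow, while most of the constitutive machinery was not called changed. All 5 immunoproteasome genes fell, by 0.44 to 0.65 on the log2 scale. Of the other 44 members tested, 2 fell and none rose: Psmg4, an assembly chaperone, and Psma7, an alpha ring subunit. The test was edgeR's quasi-likelihood test with Benjamini-Hochberg adjustment over 12771 genes at a threshold of 0.05. In that comparison 31.4% of all tested genes were called, 15.8% lower and 15.6% higher. The count over the whole family, 7 of 49 lower, is near that background. The median log2 fold change was -0.54 in the immunoproteasome set, -0.04 in the other members and -0.02 in all genes tested.

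Psmb8 encodes beta5i, the chymotrypsin-like subunit that replaces Psmb5. It had 113, 130.3 and 136 CPM in aged_KO libraries 3, 9 and 10, against 209, 187 and 178 CPM in aged_WT libraries 1, 6 and 7. Every aged_KO library lay below every aged_WT library, and Psmb8 fell by 0.58 (log2, SE 0.11, adjusted p = 0.0051 by edgeR).

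Psmb9 encodes beta1i, which replaces Psmb6. Its levels were 54.2, 56.2 and 72.7 CPM in aged_KO libraries 3, 9 and 10, against 99.4, 90.8 and 78.3 CPM in aged_WT libraries 1, 6 and 7. The groups did not overlap, although aged_KO library 10 came close to aged_WT library 7. Psmb9 fell by 0.54 (log2, SE 0.13, edgeR adjusted p = 0.015), and the call was lost without aged_KO replicate 3 (adjusted p = 0.061) or replicate 9 (adjusted p = 0.054). Psmb9 lies on chromosome 17 at 34181987 to 34187764 (minus strand, GRCm38) and overlaps Tap1, the peptide transporter gene, on the other strand. The kit marks strand, but whether the counting used it was not stated, so reads of Psmb9 and Tap1 may be mixed. The same limit holds for Psmb8, Psmb10 and Psme1, which overlap Gm20496, Gm16156 and Emc9 in turn on the other strand.

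Psmb10 encodes beta2i, which replaces Psmb7. It had 45.9, 49.8 and 50.7 CPM in the aged_KO libraries, against 74.4, 81.0 and 76.7 CPM in the aged_WT libraries. The gap between the groups was wider than the spread within either, and the fall was the steepest of the set (0.65 on the log2 scale, SE 0.09, adjusted p = 0.0016 by edgeR).

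Both PA28 subunits were lower as well. Psme1 had 117, 129 and 130 CPM in aged_KO libraries 3, 9 and 10, against 178, 171 and 173 CPM in aged_WT libraries 1, 6 and 7. The groups stood apart, and Psme1 fell by 0.46 (log2, SE 0.09, edgeR adjusted p = 0.0068). Psme2 had 90.8, 113 and 122 CPM in aged_KO libraries 3, 9 and 10, against 163, 147 and 138 CPM in aged_WT libraries 1, 6 and 7. Psme2 fell by 0.44 (log2, SE 0.13, edgeR adjusted p = 0.025) with groups apart. Its call was lost without aged_KO replicate 3 (adjusted p = 0.084), aged_WT replicate 1 (0.090) or aged_WT replicate 6 (0.064). Psme2 is the less certain of the pair, because its estimated counts were not whole in any of the 12 libraries, as were those of Psme2b, with which it can share reads.

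**Figure D1:**
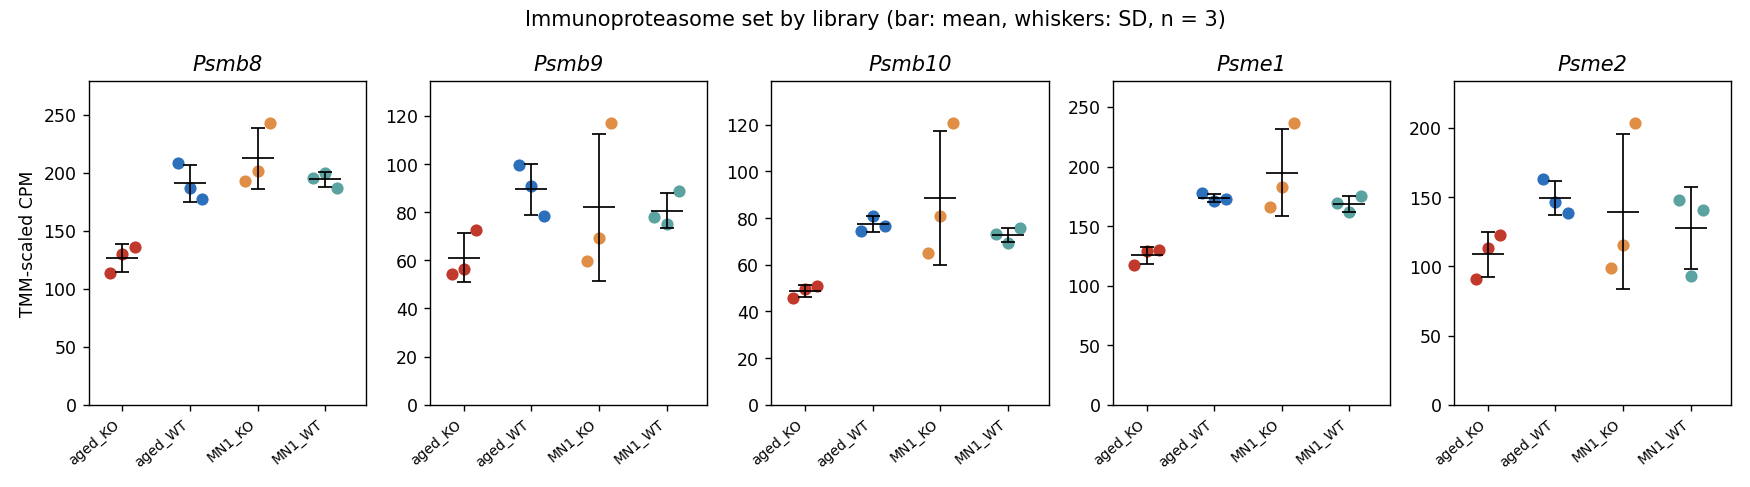
TMM-scaled CPM (vertical axis, from 0) of Psmb8, Psmb9, Psmb10, Psme1 and Psme2 in each library of the 4 groups, with the group mean (bar) and SD (whiskers, n = 3). In all 5 panels the 3 aged_KO libraries lie below the 3 aged_WT libraries, while MN1_KO and MN1_WT libraries overlap.

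The constitutive catalytic partners did not pass the test. Psmb5 had 63.7, 75.1 and 106 CPM in aged_KO libraries 3, 9 and 10, against 78.2, 93.7 and 87.1 CPM in aged_WT libraries 1, 6 and 7 (log2 fold change -0.07, SE 0.17, adjusted p = 0.79 by edgeR). Psmb6 had 79.4, 96.5 and 107 CPM in the aged_KO libraries and 98.0, 113 and 108 CPM in the aged_WT libraries (log2 fold change -0.16, SE 0.12, edgeR adjusted p = 0.34). Psmb7 had 118, 129.8 and 139 CPM in the aged_KO libraries and 143, 131 and 131 CPM in the aged_WT libraries (log2 fold change -0.06, SE 0.10, edgeR adjusted p = 0.70). In all 3 genes the groups overlapped, with aged_KO library 3 lowest.

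Levels of different genes were compared as TPM, which is per length. The ratio of Psmb8 to Psmb5 TPM was 1.23, 1.2 and 0.886 in aged_KO libraries 3, 9 and 10, against 1.85, 1.38 and 1.41 in aged_WT libraries 1, 6 and 7. The ratio of Psmb9 to Psmb6 was 0.898, 0.768 and 0.895 in the aged_KO libraries, against 1.33, 1.06 and 0.955 in the aged_WT libraries. The ratio of Psmb10 to Psmb7 was 0.292, 0.286 and 0.273 in the aged_KO libraries, against 0.389, 0.462 and 0.437 in the aged_WT libraries. Each of the 3 ratios was lower in every aged_KO library than in any aged_WT library, by 0.49, 0.38 and 0.60 on the log2 scale for Psmb8, Psmb9 and Psmb10 in turn. The exact two-sided permutation p was 0.1 for each of the 3 pairs, the smallest that 3 against 3 libraries allow. Adjusted by Benjamini-Hochberg over the 6 ratio tests of both experiments it was 0.2, so none passed. The 5 immunoproteasome genes together made up 13.2, 13.5 and 12.5% of the members' summed TPM in aged_KO libraries 3, 9 and 10, against 17.5, 16.4 and 15.8% in aged_WT libraries 1, 6 and 7.

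**Figure D2:**
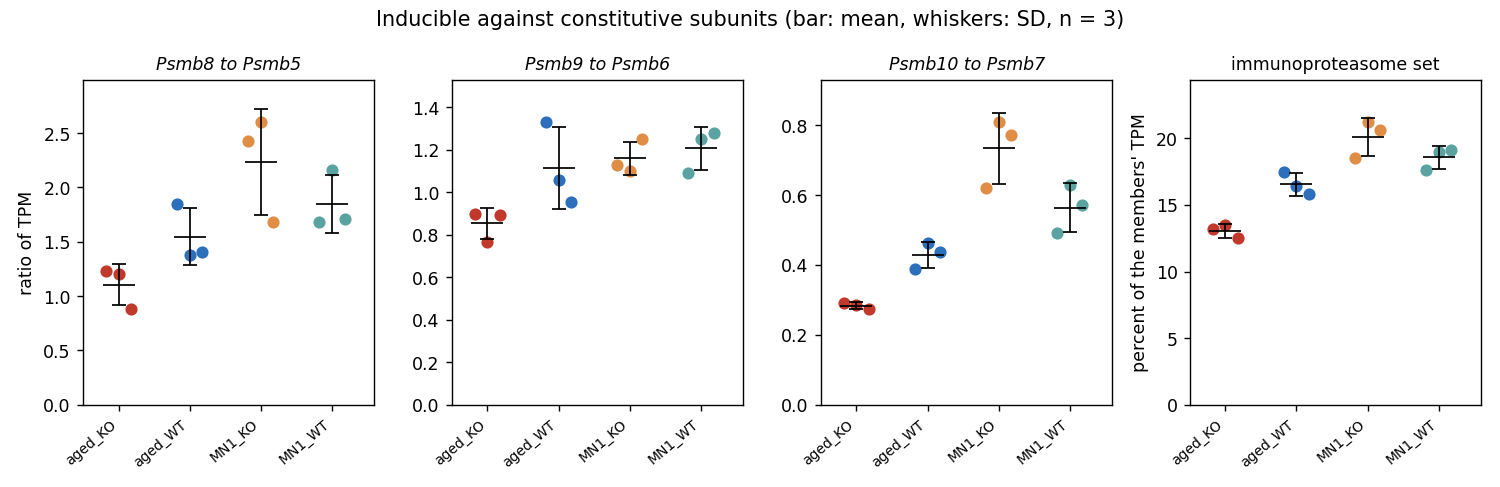
Ratio of TPM of each inducible catalytic subunit to its constitutive partner (3 panels on the left) and the share of the members' summed TPM taken by the immunoproteasome set (right, in percent), per library with the group mean and SD (n = 3). The aged_KO libraries are lowest in every panel, at 12.5 to 13.5% of the summed TPM.

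Among the remaining core subunits, log2 fold changes below 0 prevailed, mostly without passing. Of the 14 constitutive core genes, the 7 alpha ring genes and 7 beta genes, 13 had a log2 fold change below 0 and 1 was called, and their median was -0.16. Psma7 had 135, 174 and 195 CPM in aged_KO libraries 3, 9 and 10, against 234, 241 and 206 CPM in aged_WT libraries 1, 6 and 7. The groups did not overlap, and Psma7 fell by 0.42 (log2, SE 0.14, edgeR adjusted p = 0.045). That call was lost in 5 of 6 fits that left out a library, and with DESeq2 size factors in place of TMM (adjusted p = 0.059). The structural beta subunits Psmb1 and Psmb3 had log2 fold changes of -0.33 (adjusted p = 0.11) and -0.31 (adjusted p = 0.10).

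Psmg4, a chaperone of 20S assembly, showed the largest decrease of the family. It had 6.62, 7.13 and 7.90 CPM in aged_KO libraries 3, 9 and 10, against 11.99, 11.8 and 12.4 CPM in aged_WT libraries 1, 6 and 7. Groups were well apart, and Psmg4 fell by 0.73 (log2, SE 0.14, edgeR adjusted p = 0.0058). The other assembly chaperones Psmg2 and Psmg3 had log2 fold changes of -0.37 and -0.34 (adjusted p = 0.12 and 0.13), and Psmg1 lay at 0.00.

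No 19S gene was called. None of the 6 base ATPases and none of the 11 non-ATPase subunits was called, and 8 of these 17 genes had a log2 fold change above 0 (median -0.01, from -0.10 to 0.23). Psmd2, a large scaffold subunit of the base, had 240.4, 243 and 275 CPM in the aged_KO libraries and 197, 223 and 232 CPM in the aged_WT libraries, which did not overlap (log2 fold change 0.23, edgeR adjusted p = 0.14). The activators of other kinds, Psme3 (PA28 gamma, nuclear) and Psme4 (PA200), had log2 fold changes of 0.21 and 0.23 (adjusted p = 0.11 and 0.14). Psmf1, which encodes the PI31 protein, had -0.39 (adjusted p = 0.060), and Psmd9, a chaperone of base assembly, had -0.41 (adjusted p = 0.075). The aged groups stood apart below in 5 of 5 immunoproteasome genes and in 5 of the other 44 members, and apart above in 4 of those 44, against 25.8% of all tested genes below, 22.5% above and 48.3% in either direction. Psmb11, the thymus-specific beta5t, missed the filter on low counts, at 0 to 0.301 CPM in the 12 libraries.

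**Figure D3:**
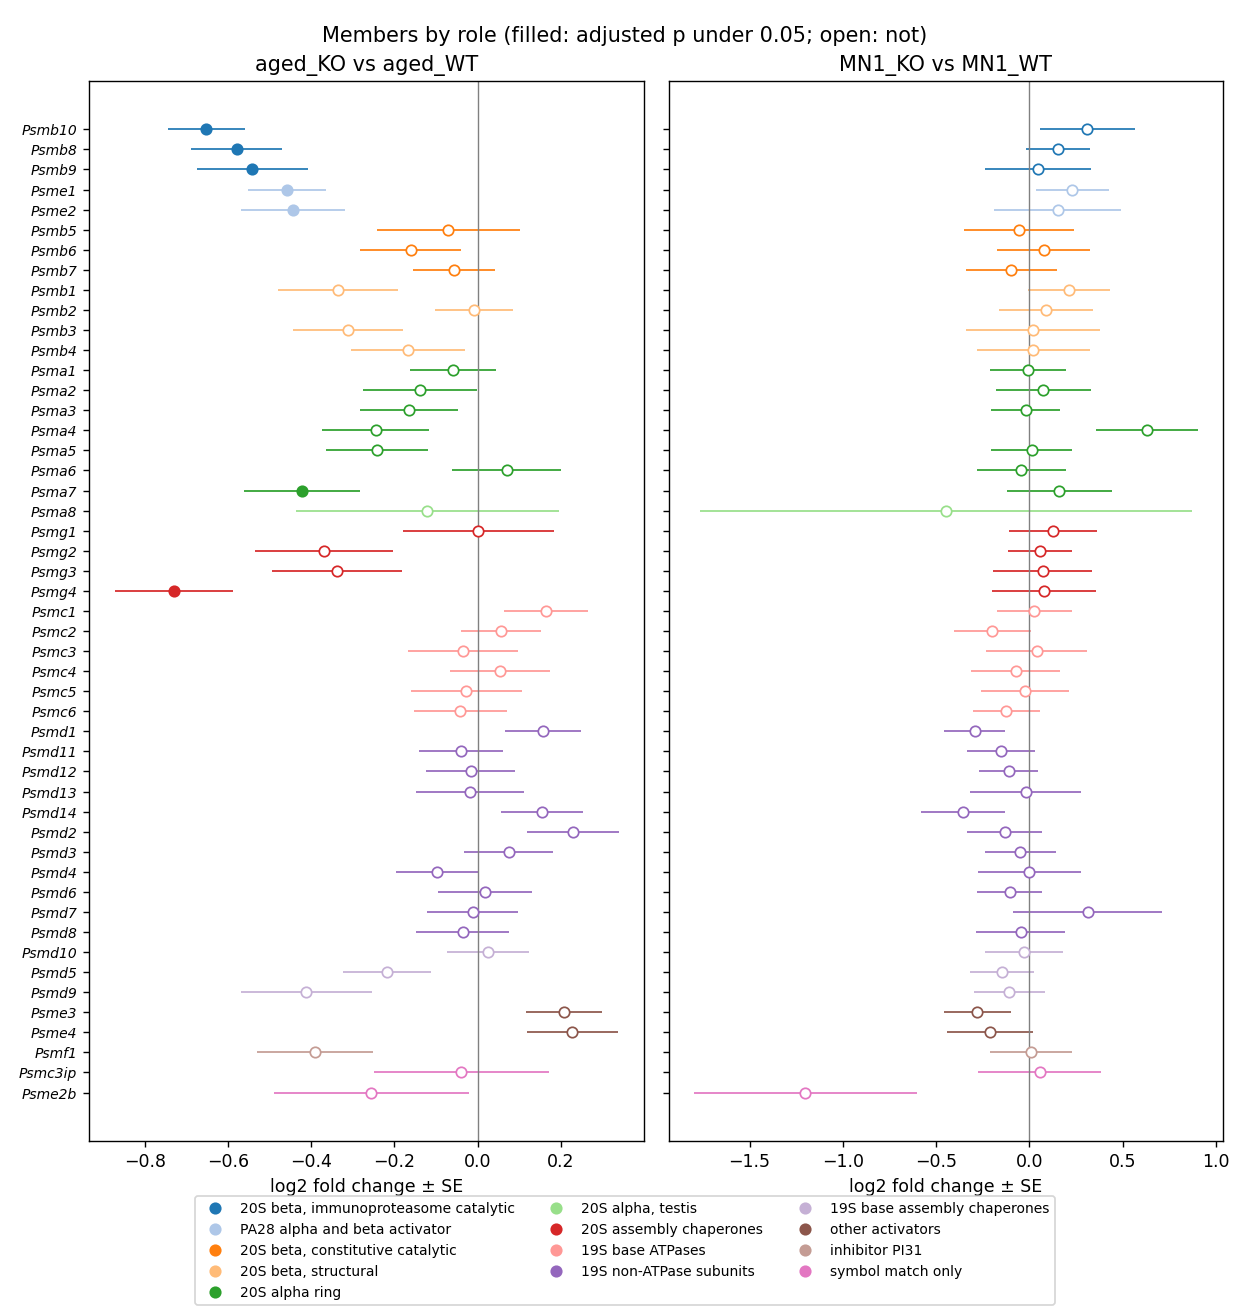
Log2 fold change (horizontal axis, with SE) of the 49 tested members in aged_KO against aged_WT (left) and MN1_KO against MN1_WT (right), ordered and coloured by role; filled points have an edgeR adjusted p under 0.05. On the left, 7 points are filled, all below 0, and 5 of them are the immunoproteasome set at the top; on the right none is filled. The 2 panels have different horizontal scales.

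Markers of marrow cell types were also called in this comparison, beside 15.8% of all tested genes lower and 15.6% higher. All 12 B cell markers were lower in aged_KO, with summed levels of 36.6 to 58.1 CPM in aged_KO and 537 to 1179 CPM in aged_WT. Of 13 T and NK cell markers 12 were lower, with sums of 147 to 231 CPM in aged_KO and 223 to 318 CPM in aged_WT. Nkg7, the marker not called lower, weighed most in these sums. Its mean was 225 TPM of a list mean of 259 TPM in aged_KO, and 169 of 321 TPM in aged_WT. Of 12 neutrophil markers 7 were higher, with sums of 116400 to 158100 CPM in aged_KO and 82450 to 111800 CPM in aged_WT. Of 12 monocyte, macrophage and dendritic cell markers 3 were lower, and 4 had a log2 fold change above 0. Their sums were 2430 to 2756 CPM in aged_KO and 3631 to 3976 CPM in aged_WT. Erythroid markers were lower for 8 of 10 tested, with sums of 842 to 1282 CPM in aged_KO and 1716 to 6813 CPM in aged_WT. Among the B cell markers, Vpreb1 had 0 counts in aged_KO library 3. The part of these cell types in the fall of the immunoproteasome genes was not tested.

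The number of calls depended on the fit. When all 12 libraries shared 1 estimate of the spread, 1 member (Psmb8) was called lower in aged_KO, with 4.18% of all genes called lower. The adjusted p was then 0.064 for Psmb10, 0.071 for Psme1, 0.057 for Psmg4, 0.19 for Psmb9 and 0.33 for Psme2. Leaving out aged_KO replicate 10, in which the alpha ring genes summed to 1205 CPM (877 and 1023 CPM in replicates 3 and 9), gave 15 lower calls and 1 higher call (Psme4), with 17.1% of all genes lower and 18% higher. Leaving out aged_KO replicate 3 gave 4 lower calls, with 10.7% of all genes lower. Scaling by library totals alone, chosen after seeing the data, shifted the median of all genes by -0.18 and gave 18 lower calls; over all genes it gave 1046 higher and 3381 lower calls, against 1987 and 2021 with TMM.

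Genes that feed or direct the pathway changed in both directions, and their counts stand against 15.8% lower and 15.6% higher among all tested genes. Of 23 partners of the proteasome (shuttle factors, deubiquitinases and related genes), Ddi2, a protease that activates the proteasome-inducing factor Nfe2l1, rose by 0.89 (log2, SE 0.14, edgeR adjusted p = 0.0023). In the same list Txnl1, a 19S-bound thioredoxin-like protein, fell by 0.35 (adjusted p = 0.027), a call lost in 5 of 6 fits that left out a library. Of 6 ubiquitin and E1 genes, Uba1, the main ubiquitin-activating enzyme, rose by 0.36 (adjusted p = 0.026), and that call too was lost in 5 of 6 such fits. Of 12 genes of the interferon-gamma pathway 3 fell: Irf8 by 1.43 (adjusted p = 0.00068), Nlrc5, the class I transactivator, by 1.00 (adjusted p = 0.013) and Socs1 by 0.78 (adjusted p = 0.032). The call of Socs1 was lost in 4 of 6 such fits and that of Nlrc5 in 1. Irf1 had a log2 fold change of -0.41 and did not pass (adjusted p = 0.089). Of 10 genes of class I peptide supply 3 fell (H2-K1 by 1.03, B2m by 0.74 and Tap1 by 0.74) and 2 rose, the chaperones Calr by 0.45 and Pdia3 by 0.38. The calls of Calr and Pdia3 were each lost in 4 of 6 such fits, and those of H2-K1, B2m and Tap1 in none.

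With MN1, no member was called between knockout and wild-type marrow. In MN1_KO against MN1_WT edgeR called 0 of 13525 genes (0%), with 1353 genes at an unadjusted p under 0.05, of which 568 were higher and 785 lower. DESeq2 called 565 genes there and limma-trend 6. None of the 49 members tested was called by any of these tools, and none had an unadjusted edgeR p under 0.05. The edgeR count over all genes depended on the libraries fitted. Without MN1_WT replicate 3 it was 455 higher and 441 lower, and with all 12 libraries in the fit 162 higher and 302 lower. No member was called in either fit. In counts simulated from these libraries, edgeR recovered 2% of genes changed by 1 on the log2 scale in the MN1 comparison and 91% in the aged comparison. The simulation changed 200 genes drawn at random from those above a low level, so it does not give the recovery for these members. A missing call in the MN1 libraries does not show that a gene was unchanged.

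Levels of the immunoproteasome genes overlapped between MN1_KO and MN1_WT. Psmb8 had 193, 202 and 243 CPM in MN1_KO libraries 5, 7 and 8, against 196, 200.2 and 187 CPM in MN1_WT libraries 2, 3 and 4 (log2 fold change 0.15, SE 0.17, edgeR adjusted p = 0.84). Psmb9 had 59.9, 69.1 and 117 CPM in the MN1_KO libraries and 78.1, 75.1 and 88.7 CPM in the MN1_WT libraries (0.05, SE 0.28). Psmb10 had 64.9, 81.0 and 121 CPM in the MN1_KO libraries and 73.2, 69.5 and 75.7 CPM in the MN1_WT libraries (0.31, SE 0.25). In these genes MN1_KO library 8 was the highest of the 6. Without it the log2 fold changes were 0.04 for Psmb8, -0.31 for Psmb9 and 0.01 for Psmb10, and without MN1_WT libraries 2 and 4 they were 0.14, 0.18 and 0.41.

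PA28 showed the same layout. Psme1 had 166, 183 and 236 CPM in MN1_KO libraries 5, 7 and 8, against 169, 162 and 175 CPM in MN1_WT libraries 2, 3 and 4 (log2 fold change 0.23, SE 0.20). Psme2 had 99.1, 116 and 203 CPM in the MN1_KO libraries and 148, 93.3 and 141 CPM in the MN1_WT libraries (0.15, SE 0.34). The lowest library for Psme2 was MN1_WT library 3, and MN1_KO library 8 was the highest for both genes. Without library 8 the log2 fold changes were 0.06 for Psme1 and -0.24 for Psme2, and without MN1_WT libraries 2 and 4 they were 0.32 and 0.64. The median log2 fold change was 0.15 for the immunoproteasome set and -0.02 for the other members, and 0.32 and 0.19 without MN1_WT libraries 2 and 4. When 1 library was left out, the medians ran from 0.01 to 0.31 and from -0.22 to 0.07. Of the 49 members 1 had groups that did not overlap, against 15.6% of all tested genes in either direction (8.64% below and 6.94% above). It was Psmd1, a scaffold subunit of the base, with 137, 123 and 133 CPM in MN1_KO and 177, 149 and 163 CPM in MN1_WT. The constitutive partners had log2 fold changes of -0.06 (Psmb5), 0.08 (Psmb6) and -0.10 (Psmb7).

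Ratios of inducible to constitutive TPM also overlapped between the MN1 groups. Psmb8 to Psmb5 was 2.43, 2.60 and 1.68 in MN1_KO libraries 5, 7 and 8 and 1.68, 2.16 and 1.71 in MN1_WT libraries 2, 3 and 4 (exact two-sided permutation p = 0.3). Psmb9 to Psmb6 was 1.13, 1.10 and 1.25 in MN1_KO and 1.09, 1.25 and 1.28 in MN1_WT (exact permutation p = 0.8). Psmb10 to Psmb7 was 0.619, 0.808 and 0.773 in MN1_KO and 0.490, 0.630 and 0.571 in MN1_WT (exact permutation p = 0.2). The immunoproteasome share of the members' TPM was 20.1 ± 1.4% in MN1_KO and 18.6 ± 0.82% in MN1_WT (SD, n = 3 each), with 18.5, 21.2 and 20.6% in MN1_KO libraries 5, 7 and 8 against 17.6, 19.01 and 19.1% in MN1_WT libraries 2, 3 and 4. B cell markers summed to 28.6 to 43.8 CPM in MN1_KO and to 44.5, the value of library 3, up to 352 CPM in MN1_WT. T and NK cell markers summed to 125.1 to 181.0 CPM in MN1_KO and 181.1 to 486.6 CPM in MN1_WT. Sums overlapped for monocyte, macrophage and dendritic cell markers (759 to 1716 against 1261 to 2299 CPM), neutrophil markers (19410 to 91270 against 34800 to 90900 CPM) and erythroid markers (259 to 1768 against 440.9 to 1201 CPM). The part of these cell types in these values was not tested.

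The knockout effect with MN1 minus that in aged marrow was above 0 for all 5 immunoproteasome genes and passed the test for none. In this test edgeR called 3.32% of 13937 genes (1.41% higher and 1.92% lower) and 0 of 49 members. At an unadjusted p under 0.05 were 8 of the 49 members, against 3098 of the 13937 genes. Psmb10 differed by 0.95 (log2, SE 0.27, adjusted p = 0.072), Psmb8 by 0.72 (SE 0.19, adjusted p = 0.058) and Psme1 by 0.68 (SE 0.20, adjusted p = 0.078). Psme2 and Psmb9 differed by 0.59 and 0.58 (adjusted p = 0.37 and 0.32). The medians were 0.68 for the immunoproteasome set, 0.02 for the other members and 0.08 for all genes. DESeq2 called the difference in Psmb8, Psmb10 and Psme1 (higher) and in Psmd1 and Psme3 (lower), with 5.09% of all genes higher and 7% lower. limma-trend called 0 members. Library totals alone gave the same 3 higher calls and none lower, with 2.48% of all genes higher and 1.57% lower. Without MN1_WT replicate 3, the library of that group with Mn1 RNA, Psmb8 was called higher and Psmd1, Psmd14 and Psme3 lower, against 13.6% of all genes higher and 9.99% lower. Without MN1_KO replicate 5 or replicate 8 Psmb10 was called higher, against 0.927% and 2.05% of all genes higher. Without MN1_WT libraries 2 and 4 no member was called.

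Knockout marrow with MN1 was then set against aged knockout marrow. Here 37.9% of 13937 genes were called, 21.1% higher and 16.8% lower in MN1_KO, and of the 49 members 4 were higher and 2 lower. Of the immunoproteasome set, 3 genes were higher: Psmb10 by 0.86 (log2, SE 0.19, edgeR adjusted p = 0.0076), Psmb8 by 0.75 (SE 0.13, adjusted p = 0.0035) and Psme1 by 0.64 (SE 0.14, adjusted p = 0.0074). Each of these calls held in all 6 fits that left out a library. Psmb9 and Psme2 were at 0.43 and 0.36 and did not pass (adjusted p = 0.16 and 0.29). The median was 0.64 in the immunoproteasome set, -0.20 in the other members and 0.08 in all genes.

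The B cell markers summed to 28.6 to 43.8 CPM in MN1_KO and 36.6 to 58.1 CPM in aged_KO. Over the same libraries the immunoproteasome genes summed to 583 to 919 CPM in MN1_KO and 421 to 512 CPM in aged_KO. Neutrophil markers were lower for 8 of 12, with sums of 19410 to 91270 CPM in MN1_KO and 116400 to 158100 CPM in aged_KO. T and NK markers were higher for 7 of 13 and lower for 1. Over all tested genes 21.1% were higher and 16.8% lower. Of 12 monocyte, macrophage and dendritic cell markers 5 were lower and 1 higher, with sums of 759 to 1716 CPM in MN1_KO and 2430 to 2756 CPM in aged_KO. The part of any of these cell types, B cells included, in the immunoproteasome difference was not tested. This comparison and the aged knockout comparison share the aged_KO libraries, so their values are not independent.

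Of the constitutive genes, Psmb7 was lower by 0.52 (log2, SE 0.18, edgeR adjusted p = 0.041), with 77.8, 74.6 and 116 CPM in MN1_KO libraries 5, 7 and 8, against 118, 129.8 and 139 CPM in aged_KO libraries 3, 9 and 10. Psmd10, an ankyrin-repeat chaperone of base assembly, was lower by 0.51 (SE 0.15, edgeR adjusted p = 0.022), with 20.01, 21.1 and 27.4 CPM in MN1_KO and 31.7, 31.6 and 34.5 CPM in aged_KO. The groups stood apart in 5 members above and 5 below, against 27.7% of all tested genes above, 22.4% below and 50.1% in either direction. Psmb7 and Psmd10 were among those below, but each of their calls was lost in 5 of 6 fits that left out a library. The alpha ring genes summed to 1191 CPM in MN1_KO library 8, against 843 and 746 CPM in MN1_KO libraries 5 and 7. Without library 8, 21 members were called lower, with 24.5% of all genes lower, among them Psmb3 by 0.94, Psmb4 by 0.74 and Psmb5 by 0.60, and Psmb8, Psmb10 and Psme1 were still called higher. Library totals alone shifted the median of all genes by 0.37 and gave 12 higher and 0 lower members, and 5350 higher and 1358 lower genes against 2936 and 2345 with TMM. DESeq2 called 4 members higher, the same 4 as edgeR, and 8 lower, against 22.8% of all genes higher and 22% lower.

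Psmd7, a lid subunit of the 19S particle that pairs with the deubiquitinase Psmd14, stood out from its neighbours. It had 222, 183 and 130.3 CPM in MN1_KO libraries 5, 7 and 8 and 110.4, 239 and 90.8 CPM in MN1_WT libraries 2, 3 and 4. In aged libraries it had 76.7, 73.9 and 89.9 CPM in aged_KO and 76.2, 79.1 and 88.9 CPM in aged_WT. The 4 libraries with the most Psmd7 were the 4 with Mn1 RNA above 20 CPM, the 3 MN1_KO libraries and MN1_WT library 3. Psmd7 was higher in MN1_KO than in aged_KO by 1.16 (log2, SE 0.32, edgeR adjusted p = 0.019), a call lost in 4 of 6 fits that left out a library. In MN1_WT against aged_WT it was at 0.85 (edgeR adjusted p = 0.14). Without MN1_WT libraries 2 and 4 it was at 1.56, where the 1 remaining library is assumed to vary like the other groups. That Psmd7 and Mn1 were high in the same libraries was noticed after their values were seen, and it was not tested. Psmd14 had log2 fold changes of -0.41 and 0.11 in the 2 comparisons.

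**Figure D4:**
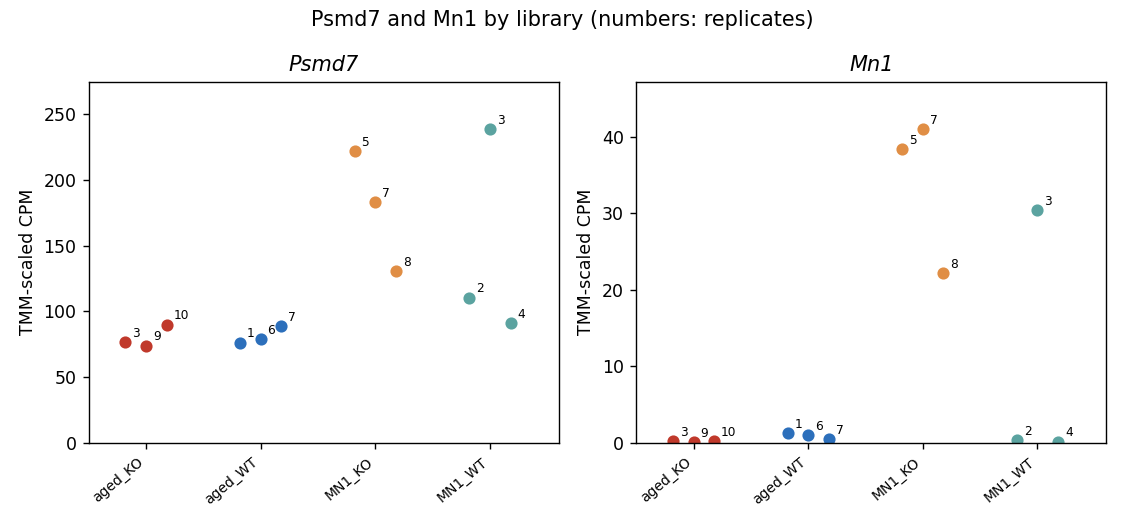
TMM-scaled CPM (vertical axis, from 0) of Psmd7 (left) and Mn1 (right) in each library, with replicate numbers beside the points. The 3 MN1_KO libraries and MN1_WT library 3 are highest in both panels, and MN1_WT libraries 2 and 4 have almost no Mn1 RNA (0.383 and 0.158 CPM).

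In wild-type marrow the immunoproteasome set had overlapping TMM-scaled CPM with and without the MN1 label, but not overlapping TPM. In MN1_WT against aged_WT edgeR called 3.58% of 13937 genes (2.58% lower and 1% higher) and 0 of 49 members. At an unadjusted p under 0.05 were 13 of the 49 members, against 3398 of the 13937 genes. DESeq2 called 1 member higher (Psmd1) and 5 lower (Psma3, Psma7, Psmb1, Psmd5 and Psmd10), against 5.53% of all genes higher and 7.32% lower. The summed immunoproteasome level ran from 600.2 to 668 CPM in MN1_WT libraries, against 644 to 723 CPM in aged_WT libraries, and none of the 5 genes had groups that did not overlap. As TPM, which has no TMM scaling, the set summed to 1178 to 1417 in MN1_WT against 957.8 to 1012 in aged_WT. The gap was not particular to the set, because the 19S non-ATPase subunits were also apart in TPM (1157 to 1561 against 891.6 to 1016). All 50 members together, a sum that includes the set, were apart as well (6168 to 7452 against 5798 to 6101). Without the set, the 45 other members overlapped (4990 to 6035 against 4786 to 5136). The set's share of the members' TPM was 17.6 to 19.1% against 15.8 to 17.5%, higher in every MN1_WT library. The median log2 fold change of the 5 genes, by edgeR, was -0.09. The constitutive core was at -0.42 by edgeR in the median over 14 genes, with 12 of them apart below in TMM-scaled CPM, against 19.4% of all tested genes. As TPM, the alpha ring genes overlapped, with sums of 1338 to 1592 in MN1_WT against 1473 to 1529 in aged_WT. The constitutive catalytic genes overlapped too (494.4 to 573.1 against 469.0 to 517.4 TPM). The structural beta genes were apart below (854.9 to 963.0 against 972.3 to 1040 TPM). Psmb1 had the smallest adjusted p among members (log2 fold change -0.71, SE 0.19, edgeR adjusted p = 0.064), with 120.4, 101 and 111 CPM in MN1_WT libraries 2, 3 and 4 and 176, 186 and 179 CPM in aged_WT libraries 1, 6 and 7. The 17 genes of the 19S base and lid had a median of 0.01. B cell markers summed to 44.5 to 352 CPM in MN1_WT, against 537 to 1179 CPM in aged_WT. Sums were also lower for monocyte, macrophage and dendritic cell markers (1261 to 2299 against 3631 to 3976 CPM) and erythroid markers (440.9 to 1201 against 1716 to 6813 CPM). Those of T and NK cell markers and of neutrophil markers overlapped. The part of these cell types was not tested. Without MN1_WT libraries 2 and 4 the median of the other members was -0.41. Psma8, a testis alpha subunit with 0.0696 CPM in MN1_WT library 3, was then at -5.02.

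The pathway lists moved in both directions in MN1_KO against aged_KO, where 21.1% of all tested genes were higher and 16.8% lower. Of 12 interferon-gamma pathway genes 4 were higher, Nlrc5 by 1.79 (edgeR adjusted p = 0.0016), Stat2 by 0.91, Ifngr1 by 0.71 and Irf9 by 0.69, and 3 were lower, Jak1 by 0.95, Ifngr2 by 0.94 and Irf2 by 0.46. Of 10 class I supply genes 3 were higher, Tap1 by 1.26 (adjusted p = 0.0020), H2-K1 by 0.92 and Tap2 by 0.85. Of 23 partners 4 were lower, Ddi2 by 1.04 (adjusted p = 0.0044), Ubqln2 by 0.44, Ubqln1 by 0.32 and Nploc4 by 0.32, the last 3 being shuttle or segregase factors. Among the ubiquitin and E1 genes, Uba1 was lower by 0.33 (adjusted p = 0.046). When 1 library was left out, the calls of Ifngr2, Nploc4 and Uba1 were lost in 5 of 6 fits, those of Irf2, Irf9 and Ubqln1 in 4 and that of Ubqln2 in 1. In MN1_WT against aged_WT, Nlrc5 was higher by 1.07 (adjusted p = 0.044) and Rps27a, a ubiquitin-ribosomal fusion gene, lower by 0.97 (adjusted p = 0.032), and both calls were lost in each of the 6 fits that left out a library.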

How the data were processed

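The authors deposited expected counts, TPM and FPKM per gene symbol in a table of 6 libraries for each experiment, made with RSEM 1.2.28, Bowtie2 2.3.4.3 and the mm10 build per the submitters' processing notes; the gene annotation is not given in the sources used here. Libraries were stranded and poly(A)-selected, per the labels' protocols. Here the values were rounded, and edgeR 4.0.16 in R 4.3.3 filtered genes (filterByExpr), computed TMM factors and ran its robust quasi-likelihood test, with Benjamini-Hochberg adjustment at 0.05 over all genes tested. Each knockout effect was fitted on its own 6 libraries; the other contrasts came from a fit of all 12. DESeq2 1.42.0 and limma-trend (limma 3.58.1) were alternatives. The deposited TPM served for levels between genes; the deposited FPKM were not used. Medians over members carry no test. Depth (16544407 to 28409046 counts per library) limits precision for low genes such as Psmb11.

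Members and lists were chosen with earlier results of these data known. Genes are given in full by rule: the immunoproteasome set, Psmb5, Psmb6 and Psmb7, and up to 6 further called members per direction and comparison; of each related list, its counts and up to 4 called genes per direction. Some genes under this rule are not reported here. Others named were chosen after their values were seen. Fits were tested on simulated data. In 96.7% of the genes tested in the aged comparison, exon length had a value; length and log2 fold change correlated with a Spearman rho of 0.22 across genes, which are not independent replicates.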

Additional observations from a re-analysis of the deposited data

How the results depend on the processing

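No paired analysis was possible because the groups compared share no replicate numbers. In aged_KO against aged_WT the members called lower numbered 7, 18 with library totals alone, 1 with all 12 libraries in the fit and 4 to 15 when 1 library was left out (0 to 1 higher). The share of all tested genes called lower moved too. It was 15.8%, 26.5% with library totals alone, 4.18% with all 12 libraries and 10% to 17.1% leaving out 1 library (8.59% to 18% higher). The immunoproteasome median was -0.54, -0.72 with library totals alone and -0.62 to -0.46 leaving out 1 library; that of the other members was -0.04, and -0.22 with library totals alone. Leaving out 1 library, Psmb5 ran from -0.29 to 0.08 and Psmb7 from -0.10 to 0.01, both above 0 only without aged_KO replicate 3. For the difference of the knockout effects, 0 to 1 members were higher and 0 to 3 lower when 1 library was left out, DESeq2 gave 3 higher and 2 lower, and library totals alone 3 higher. Of all genes, 0.148% to 13.6% were higher and 0.218% to 9.99% lower leaving out 1 library. DESeq2 called 5.09% higher and 7% lower, and library totals alone 2.48% higher. There the medians were 0.88 and 0.23 with library totals alone, and that of the other members ran from -0.20 to 0.13 leaving out 1 library. In MN1_WT against aged_WT, DESeq2 gave 1 higher and 5 lower, against 5.53% and 7.32% of all genes. There the fit without MN1_WT replicates 2 and 4 gave a median of -0.41 in the other members. Library totals alone gave medians of 0.07 and -0.06. In MN1_KO against aged_KO, 12 were higher and 0 lower with library totals alone (medians 1.00 and 0.15), 8 lower with DESeq2, and 0 to 21 lower leaving out 1 library. Of all genes, 38.4% were higher and 9.74% lower with library totals alone. DESeq2 called 22% lower, and leaving out 1 library 9.08% to 24.5% were lower. The cause was not tested, except that library totals drop the scaling factors. MN1_KO against MN1_WT had 0 calls among members in all of these. Limits: 3 libraries a group, an unstated annotation and counting strand, and MN1 status, age and table that coincide.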
